A study of Mus musculus with 123 samples.

Results

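The 10 genes described here form the end of the Hippo pathway that reaches the nucleus, read in single heart cells of mouse embryos and newborns. They were chosen by name from the 23337 gene symbols of the count table: the co-activators Yap1 and Wwtr1, the DNA-binding factors Tead1, Tead2, Tead3 and Tead4, the kinases Lats1 and Lats2, the TEAD cofactor Vgll4 and the scaffold Amotl1. All 10 are rows of the table. Wwtr1 encodes the protein usually called TAZ, whereas the row named Taz is tafazzin, a mitochondrial enzyme, and was not used. The cells came from aMHC-GFP mice, in which the promoter of the alpha myosin heavy chain gene (Myh6) drives a fluorescent reporter, and were sorted for that reporter from hearts at E9.5, E12.5 (embryonic days) and P1 (postnatal day 1). No treatment was given, and the 3 groups differ in age only as far as the labels tell. A sort on this reporter is meant to return cells that use the Myh6 promoter, so cells of the same hearts without it were not sought. A few sorted cells lacked cardiomyocyte marker genes, as given below. Hearts were dissociated with collagenase before birth and with Liberase at P1, so age and digestion cannot be told apart.

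The Hippo pathway restrains organ growth. Its kinases of the MST and LATS families phosphorylate YAP and TAZ, which are then held in the cytoplasm and degraded, and unphosphorylated YAP and TAZ enter the nucleus, bind TEAD factors and switch on genes for growth. In the mouse heart, active YAP drives cardiomyocyte division before birth, and loss of the upstream kinase module gives overgrown hearts. Most of this control acts on protein, so transcript levels tell how much message each component had and not whether the pathway was on.

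Of 123 cells, 112 had 2000 or more genes and were kept, 42 from E9.5, 29 from E12.5 and 41 of the 52 from P1. Values for the 3 ages are given in this order throughout. Titles divide the cells of an age into naming sets by their prefix. These were C (14 cells) and N530 (28 cells) at E9.5, C (20 cells), N523 (8 cells) and the single cell E12-5b at E12.5, and C (41 cells) at P1. Sets N530 and N523 stand apart in depth, with median totals of 3151946 and 4895288 counts per cell, against 415428 and 389394 in set C at E9.5 and E12.5 and 149078 at P1. No label names an animal, litter, pool or chip. Each age was therefore 1 sample, no test was made across cells, and each called ratio of the 10 genes is given with its range over the pairs of naming sets. A level is the average over cells of CPM, the counts of a gene per 1000000 counts of its cell. A gene was called between ages when its levels differed 2-fold or more and every pair of naming sets of 6 or more cells went the same way. Of the 10 genes, 8 reached the mean level of 5 CPM needed to enter this comparison, as part of 9616 genes in all, and Tead3 and Tead4 did not. At least 10 counts of each of Actc1, Tnnt2 and Myh6, genes of the cardiac contractile apparatus, were found in 39 of 42, 29 of 29 and 40 of 41 cells.

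From E9.5 to P1, the cells kept Tead1, had no Tead2 count left, and carried lower levels of Yap1, Lats2, Vgll4 and Amotl1. Relative to E9.5, 5 of the 8 genes were called lower at P1 and 2 higher. Over all 9616 genes of the same comparison, 34.8% were called lower and 17.8% higher. The median log2 ratio of the 8 genes was -1.57, beside -0.61 over all genes compared. Between E9.5 and E12.5, 2 were called lower (Tead2 and Amotl1; 17.1% of all genes) and 1 higher (Wwtr1; 8.75% of all genes), with a median of -0.04 beside -0.15. Between E12.5 and P1, 1 was called lower (Tead2; 22.6% of all genes) and 1 higher (Lats1; 18.1% of all genes), with a median of -1.07 beside -0.37. These medians depended on the naming sets. With N530 and N523 as the only embryonic cells, the median was -1.92 from E9.5 to E12.5 and turned to 0.79 from E12.5 to P1, where 4 genes were then called higher and 1 lower. Within set C the E12.5 to E9.5 ratios (log2) were 3.12 for Lats1, 1.39 for Yap1, 1.05 for Wwtr1, 0.65 for Tead1 and 0.05 for Vgll4. They were -0.43 for Tead2, -0.54 for Lats2 and -2.06 for Amotl1. These 3 comparisons share their groups, so they are not independent of each other.

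**Figure D1:**
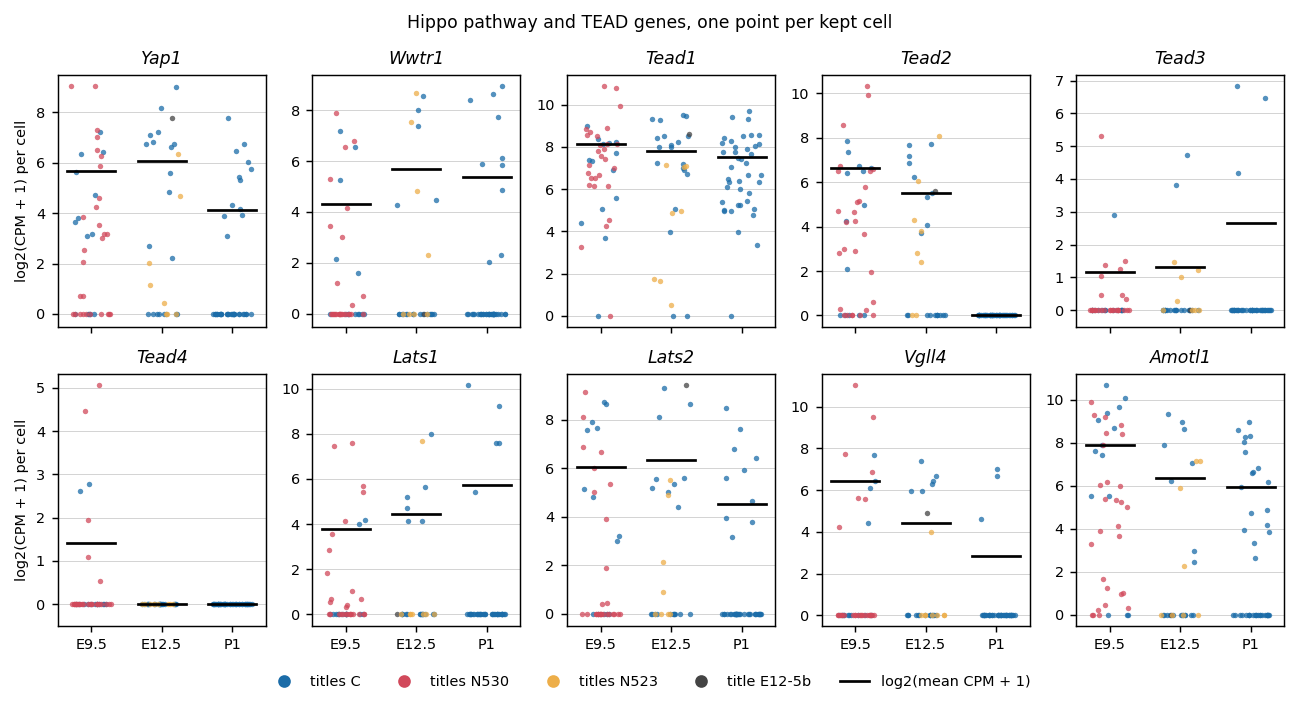
Level of each gene in every kept cell, as log2(CPM + 1) on the vertical axis of each panel, for the 42, 29 and 41 cells of the 3 ages; colours mark the naming sets and the black bar the log2 of the mean CPM + 1. Tead1 lies above 0 in nearly every cell of each age, Tead2 is at 0 in all 41 P1 cells, and the other genes split into cells at 0 and cells with a level.

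TEAD factors are the DNA-binding arm of the pathway, and Tead1 was the member found in most cells. Tead1 (GRCm38, chr7:112679356-112906784) had a count in 40 of 42 E9.5 cells (95.2%, exact 95% interval 83.8% to 99.4%), 27 of 29 E12.5 cells (93.1%, 77.2% to 99.2%), then 40 of 41 P1 cells (97.6%, 87.1% to 99.9%). Single cells ranged from 0 to 1877, 0 to 716 and 0 to 832 CPM, around medians of 168, 141 and 100.2 CPM. The ages overlapped up to 716 CPM, and 3 E9.5 cells of set N530 lay above every cell of the other ages, at 967, 1751 and 1877 CPM. Mean levels were 279 ± 394, 220 ± 220 and 184 ± 191 CPM (SD over cells, n = 42, 29 and 41 cells). The P1 level was 1.52-fold below that at E9.5 (log2 ratio -0.60), and the pairs of naming sets ran from -0.84 to 0.06, so no change was called. Cells thinned to the same depth of 100000 counts held Tead1 in 95.2%, 79.3% and 94.7% of cases.

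Among E12.5 cells the level of Tead1 depended on the naming set. The mean was 276 ± 233 CPM in the 20 cells of set C and 58.9 ± 64.7 CPM in the 8 cells of set N523, whose highest cell had 141 CPM. At E9.5 the order of depth and level was the other way round, with 176 ± 150 CPM in set C and 330 ± 465 CPM in the deeper set N530. The labels do not say what separates these sets, and their part in any difference between ages was not tested.

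Tead2, the TEAD gene otherwise known from early embryonic tissue, went from most E9.5 cells to none at P1. Tead2 (GRCm38, chr7:45215792-45233468) had a count in 31 of 42 E9.5 cells (73.8%, 58.0% to 86.1%) and 16 of 29 E12.5 cells (55.2%, 35.7% to 73.6%). At P1 it was in 0 of 41 cells, which allows a share of up to 7.32% of cells (taken as 3 cells of 41, for counting error only). The level ran from 0 to 1292 CPM around a median of 17.8 CPM in the first of these groups, and from 0 to 270 CPM around a median of 6.06 CPM in the second. The E9.5 and E12.5 ranges overlapped, and the P1 cells all lay at their lower end. Mean levels were 97.5 ± 248 and 44.7 ± 74.4 CPM. With P1 put at 3 counts of its 6819717 summed counts (0.440 CPM), its level was 222-fold lower than at E9.5 and 101.6-fold lower than at E12.5. Over the pairs of naming sets the smallest of these folds were 133-fold (log2 -8.05 to -7.06) and 98.9-fold (-6.75 to -6.63). Other choices of level measure and cells gave log2 ratios as small in size as -6.32 and -5.61, so no minimum fold is claimed.

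The absence held at equal depth. After thinning to 100000 counts, Tead2 remained in 61.9% of 42 E9.5 cells (45.6% to 76.4%) and 48.3% of 29 E12.5 cells (29.4% to 67.5%), against 0 of 38 P1 cells. Tead2 was also the only member whose thinned share was 25 percentage points or more lower at P1 than at E12.5 (by 48.3 points) or at E9.5 (by 61.9 points). Of all genes compared, 9.55% and 11.7% were lower by that margin, and no member was higher by it, against 2.53% and 5.55% of all genes. The 11 P1 cells left out for having few genes held 2 counts of Tead2, both in 1 cell, among 714929 counts. Tead2 shares 13 exon bases with Cd37 on the opposite strand, and the library kit does not mark strand, so reads on those bases could belong to either.

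The difference between E9.5 and E12.5 was smaller. The E12.5 level of Tead2 was 2.18-fold below that at E9.5 (log2 ratio -1.13, naming set pairs from -1.43 to -0.31). Without the highest cell of each age (1292 CPM at E9.5, in set N530), the means were 68.4 CPM and 36.7 CPM. That places the ratio below the 2-fold limit.

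The sequence before the annotated start of Tead2 is shown because this gene went from most E9.5 cells to no count in the kept newborn cells. It is RefSeq's promoter for GRCm38, chr7:45215542-45215752 on the plus strand, cut where the first exon in the GENCODE annotation begins, and written 5′ to 3′. The 6-base TEAD core motif GGAATG, read on both strands (CATTCC on the other), does not occur in it, so no letters are in capitals.
Tead2: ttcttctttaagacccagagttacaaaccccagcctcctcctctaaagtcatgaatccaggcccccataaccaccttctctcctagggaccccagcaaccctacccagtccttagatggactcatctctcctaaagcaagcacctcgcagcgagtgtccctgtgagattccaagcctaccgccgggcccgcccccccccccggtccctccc

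Tead3 and Tead4, the remaining family members, were found in few cells and at low mean levels. Tead3 (GRCm38, chr17:28331671-28350805) had a count in 9 of 42, 6 of 29 and 3 of 41 cells. Its highest cells had 38.5 CPM, 25.3 CPM and 114 CPM. At equal depth it was in 2.38%, 3.45% and 7.89% of cells, so the order of the ages seen with all counts turned round. Tead4 (GRCm38, chr6:128227143-128300813), best known from the trophectoderm of the early embryo and from skeletal muscle, had a count in 7 of 42 E9.5 cells, with at most 32.7 CPM. Of these 7 cells, 2 were among the 3 E9.5 cells without the cardiomyocyte markers. It was in 0 of 29 cells at the second age and 0 of 41 at the last, which allow shares of up to 10.3% and 7.32% of cells. No fold is given for Tead4, because its mean of 1.65 CPM at E9.5, with no count later, kept it out of the comparison.

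The TEAD genes can be set against each other only per length, in TPM (transcripts per 1000000), the second deposited unit. Mean TPM of Tead2 and Tead1 were 106 ± 281 and 63.5 ± 95 at E9.5 (SD, n = 42 cells) and 38.4 ± 62.8 and 41.5 ± 42.4 at E12.5 (n = 29 cells). At P1 Tead1 stood at 30.9 ± 33.1 TPM and Tead3 at 2.73 ± 11.3 TPM (n = 41 cells). Tead2 thus supplied 61.9%, 47.5% and 0% of the summed TEAD TPM at the 3 ages, and at P1 Tead1 supplied 91.9%. Among E12.5 cells Tead2 supplied 41.5% for those named C but 78.8% for those named N523. The spread between cells exceeds the gap between Tead1 and Tead2 at E9.5 and at E12.5. Counted by cell, Tead1 was the TEAD gene with the highest TPM in 24 cells and Tead2 in 16 of the 42 cells with a TEAD gene at E9.5. The same counts were 18 and 8 of 28 at E12.5, and 38 and 0 of 40 at P1.

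**Figure D2:**
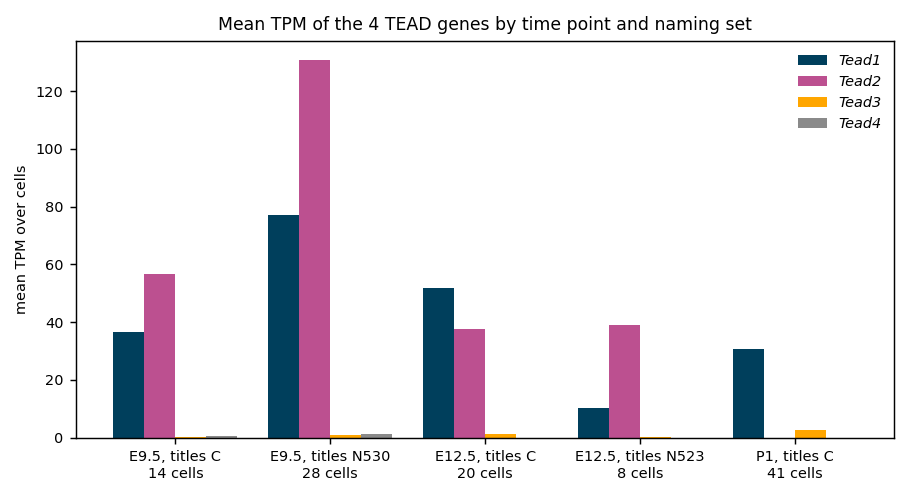
Mean TPM over cells (vertical axis, from 0) of Tead1, Tead2, Tead3 and Tead4 for each age and naming set of 6 or more cells. Tead2 has a bar in every embryonic set, from 37.6 TPM to 131 TPM, and none at P1; Tead1 has a bar in all sets, and Tead3 and Tead4 stay at or under 2.73 TPM.

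Both main TEAD genes were often found in the same embryonic cell. At equal depth, Tead1 and Tead2 were together in 25 of 42, 12 of 29 and 0 of 38 cells. Tead1 by itself was in 95.2% and 79.3% of the embryonic cells, so no link between the 2 genes is read from this. Only 1 E9.5 cell and 2 E12.5 cells had Tead2 without Tead1. In 36 of 38 P1 cells Tead1 was present without Tead2.

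Yap1 and Wwtr1 encode YAP and TAZ, the co-activators that carry the signal to TEAD and lack a DNA-binding domain of their own. Yap1 (GRCm38, chr9:7931999-8004638) had a count in 27 of 42 E9.5 cells (64.3%, 48% to 78.4%), 18 of 29 E12.5 cells (62.1%, 42.3% to 79.3%), then 12 of 41 P1 cells (29.3%, 16.1% to 45.5%). It ran from 0 to 530, 0 to 514 and 0 to 220 CPM, around medians of 7.74, 3.70 and 0 CPM. All 3 ages had cells at 0 and cells over 200 CPM. Mean levels were 49.9 ± 116, 66.3 ± 114 and 16.7 ± 41 CPM (SD, n = 42, 29 and 41 cells). P1 was 2.99-fold below E9.5 (log2 ratio -1.58, naming set pairs from -1.83 to -0.87) and was called lower.

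The difference in the share of Yap1 cells was smaller at equal depth. Thinned cells had Yap1 in 45.2% (29.8% to 61.3%), 48.3% (29.4% to 67.5%) and 28.9% (15.4% to 45.9%), so the intervals overlapped. Against E12.5 the P1 level was 3.97-fold lower, but this was not called, because the naming sets disagreed. E12.5 cells of set C averaged 79.7 ± 128 CPM and those of set N523 13.7 ± 28.1 CPM, so that the log2 ratio of P1 was -2.25 against the first and 0.29 against the second.

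Wwtr1 (GRCm38, chr3:57455644-57575910) was found in fewer cells than Yap1 at each age. A count was present in 15 of 42 E9.5 cells (35.7%, 21.6% to 52%), 9 of 29 E12.5 cells (31.0%, 15.3% to 50.8%), then 10 of 41 P1 cells (24.4%, 12.4% to 40.3%). Its highest cells reached 237 CPM, 402 CPM and 493 CPM, and its median was 0 at each age. The mean level was 18.9 ± 48, 49.9 ± 113 and 40.3 ± 112 CPM. P1 was called 2.13-fold above E9.5 (log2 ratio 1.09, naming set pairs 1.01 and 1.14) and E12.5 was called 2.64-fold above E9.5 (1.4, pairs from 1.05 to 2.07). Over cells with the cardiomyocyte markers alone the levels were 20.4, 49.9 and 36 CPM, and the P1 to E9.5 ratio (log2 0.82) was no longer called. The 1 P1 cell without those markers had 214 CPM of Wwtr1. The thinned shares did not follow that order, with 23.8%, 27.6% and 18.4% of cells. The higher mean therefore came from a few cells with high counts, with 5, 5 and 7 cells at or above 50 CPM, and no order is read from it.

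Per length, Yap1 averaged 27.5 ± 69.2, 30.8 ± 52.9 and 6.77 ± 16.4 TPM, and Wwtr1 8.43 ± 20.9, 18.9 ± 41.3 and 15 ± 40.8 TPM. These gaps are smaller than the SD over cells, and at E12.5 the order turned with the naming set, with 36.4 TPM of Yap1 and 16.4 TPM of Wwtr1 in set C against 6.37 and 27.4 TPM in set N523. At equal depth 57.1% (41% to 72.3%), 65.5% (45.7% to 82.1%) and 42.1% (26.3% to 59.2%) of cells had a count of either, and 5, 3 and 2 cells had both. A co-activator and a TEAD gene were found together in 23 of 42, 18 of 29 and 16 of 38 cells.

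**Figure D3:**
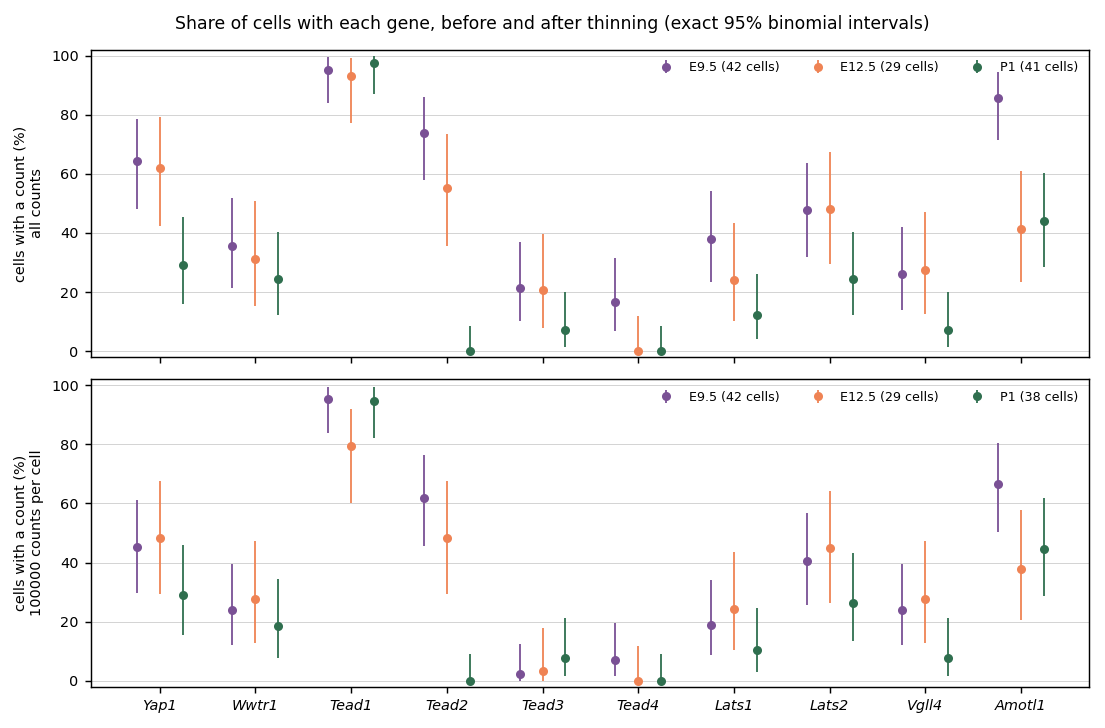
Share of cells with at least 1 count of each gene (vertical axis, percent) with exact 95% binomial intervals, using all counts (top) and after thinning each cell to 100000 counts (bottom). Tead1 stays in most cells of every age, and Tead2 goes from 73.8%, 55.2% and 0% to 61.9%, 48.3% and 0% after thinning.

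LATS1 and LATS2 are the kinases that phosphorylate YAP and TAZ. Lats2 (GRCm38, chr14:57689662-57746212) was found in 20 of 42 (47.6%), 14 of 29 (48.3%) and 10 of 41 cells (24.4%). Its highest cells had 574 CPM, 695 CPM and 355 CPM, and its median was 0 at each age. Mean levels were 66.1 ± 135, 79.3 ± 184 and 22.3 ± 65.2 CPM. P1 was called 2.97-fold below E9.5 (log2 ratio -1.57, naming set pairs from -2.32 to -0.97). At equal depth Lats2 was in 40.5% (25.6% to 56.7%), 44.8% (26.4% to 64.3%) and 26.3% (13.4% to 43.1%) of cells, so the intervals overlapped. At E9.5 it averaged 111 CPM in set C and 43.7 CPM in set N530. The P1 level was 3.56-fold below E12.5 but above that of set N523, whose 8 cells averaged 9.73 CPM, so it was not called. The highest E12.5 value was that of the lone cell E12-5b, and without the highest cell the E12.5 mean was 57.3 CPM. At P1 1 cell held 38.8% of the sum, and without it the mean was 13.96 CPM.

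Lats1 (GRCm38, chr10:7681200-7716461) was the rarer kinase and gave opposite pictures by level and by share. It had a count in 16 of 42, 7 of 29 and 5 of 41 cells, and in 19.0%, 24.1% and 10.5% of cells at equal depth. Mean levels were 12.7 ± 40.4 CPM, 20.6 ± 59.0 CPM and 52.6 ± 201 CPM. The P1 level was called 4.15-fold above E9.5 (log2 ratio 2.05, naming set pairs from 1.56 to 4.53) and 2.56-fold above E12.5 (1.35, pairs from 1.07 to 1.41). It rested on 5 cells, of which the highest, at 1139 CPM, held 52.8% of the sum. Without the highest cell of each age the means were 8.26 CPM, 12.3 CPM and 25.5 CPM, and no order of the ages is read from them. Lats1 and Lats2 were found in the same thinned cell in 4 of 42, 3 of 29 and 0 of 38 cells.

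Vgll4 competes with YAP and TAZ for TEAD factors and so limits their output. Vgll4 (GRCm38, chr6:114860621-114970007) had a count in 11 of 42 E9.5 cells (26.2%, 13.9% to 42%), 8 of 29 E12.5 cells (27.6%, 12.7% to 47.2%), then 3 of 41 P1 cells (7.32%, 1.53% to 19.9%). At equal depth these shares were 23.8%, 27.6% and 7.89%. The highest cells reached 2098 CPM, 168 CPM and 127 CPM. Mean levels were 86.5 ± 339 CPM, 20.7 ± 41.6 CPM and 6.16 ± 25.2 CPM. P1 was called 14.0-fold below E9.5 (log2 ratio -3.81, naming set pairs from -4.24 to -2.13). A single N530 cell held 57.8% of the E9.5 sum, and without the highest cell the means were 37.4 CPM, 15.5 CPM and 3.14 CPM. E12.5 was 4.17-fold below E9.5, which was not called. In set C the means at these ages were 26.9 CPM and 27.8 CPM, whereas they were 116 CPM in N530 and 1.87 CPM in N523. Vgll4 was found in all 3 E9.5 cells and in the 1 P1 cell that lacked the cardiomyocyte markers named above. Over the other cells it was in 8 of 39, 8 of 29 and 2 of 40, at 85.2, 20.7 and 3.76 CPM.

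Amotl1, an angiomotin family protein of cell junctions that binds YAP and holds it outside the nucleus, had a higher level at E9.5 than later. Amotl1 (GRCm38, chr9:14541966-14662974) was found in 36 of 42 E9.5 cells (85.7%, 71.5% to 94.6%), 12 of 29 E12.5 cells (41.4%, 23.5% to 61.1%), then 18 of 41 P1 cells (43.9%, 28.5% to 60.2%). It ran from 0 to 1647, 0 to 648 and 0 to 507 CPM, around medians of 43, 0 and 0 CPM. The ranges overlapped in their lower part, and 19, 9 and 11 cells had 50 CPM or more. Mean levels were 234 ± 366 CPM, 81.1 ± 165 CPM and 61.6 ± 122 CPM. E12.5 was called 2.89-fold below E9.5 (log2 ratio -1.53, naming set pairs from -3.28 to -0.50) and P1 3.81-fold below E9.5 (-1.93, pairs from -2.77 to -1.20). P1 and E12.5 differed 1.32-fold, which was not called.

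At equal depth Amotl1 was in 66.7% (50.5% to 80.4%), 37.9% (20.7% to 57.7%) and 44.7% (28.6% to 61.7%) of cells. It was the only member whose thinned share was 25 points or more lower at E12.5 than at E9.5, a margin passed by 2.54% of all genes. No member was higher by that margin, against 3.67% of all genes. Cells without the cardiomyocyte markers carried more of it. The 3 E9.5 cells without the cardiomyocyte markers, all in set C, averaged 1092 CPM of Amotl1, and the other 39 averaged 168 CPM. The 1 P1 cell without those markers had 311 CPM of Amotl1, 214 CPM of Wwtr1, 102.1 CPM of Vgll4 and 0 of Tead2. It also held a summed 7804 CPM over the 6 endothelial markers, of which the P1 cells had a count for 5, all in that 1 cell (Kdr was at 0). With cells of the cardiomyocyte markers alone, Amotl1 averaged 168 CPM, 81.1 CPM and 55.3 CPM.

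**Figure D4:**
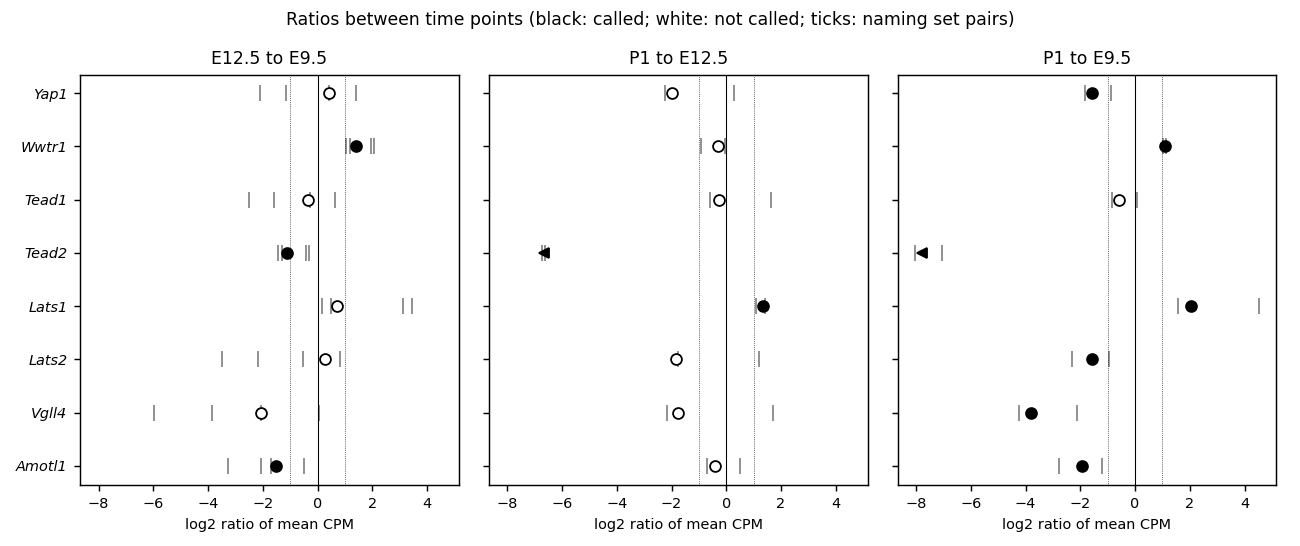
log2 ratio of the mean CPM between ages (horizontal axis) for the 8 genes compared, with called ratios in black, others in white, lower bounds on the size of a decrease as triangles, and grey ticks for the pairs of naming sets. For P1 to E9.5, 5 genes lie left of -1 and 2 right of 1; for P1 to E12.5 the ticks of Yap1, Tead1, Lats2, Vgll4 and Amotl1 fall on both sides of 0.

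Markers of other cell types were counted beside the members. Endothelial markers were found in 15 of 42, 2 of 29 and 1 of 41 cells, through 6, 2 and 5 of the 6 genes. Their summed level averaged 96.7 CPM, 0.512 CPM and 190 CPM, with highest cells of 1904 CPM, 13.5 CPM and 7804 CPM. Fibroblast markers were found in 23, 11 and 1 cells with means of 155 CPM, 47.6 CPM and 2.73 CPM. They came from 4, 6 and 1 of 6 genes, and Dcn and Lum were at 0 at E9.5 and P1. Epicardial markers were found in 24, 19 and 6 cells with means of 148 CPM, 122 CPM and 19.8 CPM. They came from 3, 3 and 1 of 5 genes, and Aldh1a2 and Upk3b were at 0 in each age. Smooth muscle markers, which embryonic cardiomyocytes also use, were found in 41, 29 and 36 cells at 4636 CPM, 2738 CPM and 1472 CPM. Erythroid markers were found in 8, 2 and 0 cells with means of 2.93 CPM, 0.0149 CPM and 0 CPM, through 2, 1 and 0 of 6 genes. Macrophage markers were found in 8, 5 and 1 cells with means of 28.2 CPM, 9.00 CPM and 15.5 CPM and highest cells of 392 CPM, 229 CPM and 636 CPM. Only 1, 2 and 1 of these 5 genes had a count, Lyz2 alone at E9.5 and Cd68 alone at P1. Fcgr1 and Ptprc were at 0 in each age. The cardiomyocyte markers themselves summed to 49176 CPM, 33795 CPM and 76742 CPM. Apart from the values given for cells without cardiomyocyte markers, the part of other cell types in the levels was not tested.

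At equal depth the median number of the 10 genes found in a cell was 4 (range 1 to 8), 3 (1 to 6) and 2 (0 to 5). Both naming sets of E9.5 had a median of 4, while E12.5 cells named C had 4 and those named N523 had 2.5. The median number of all genes found in a cell, before thinning, was 4502, 4189 and 2889, which is not a background at equal depth. Levels of the members were little related to each other across the 109 thinned cells, which are grouped by age and naming set. The largest Pearson r between any pair was 0.52 for Vgll4 and Tead4, and Tead4 was in 3 thinned cells. Tead1 and Tead2 had an r of 0.12 and Yap1 and Wwtr1 an r of -0.09. Among 4831 genes found in at least 25% of thinned cells, those most like Tead1 were Nipbl (r = 0.41) and Mki67 (0.38), those most like Amotl1 were Peli1 (0.44) and Usp48 (0.41), and those most like Yap1 were Trove2 (0.49) and Prpf4b (0.37). Ttc3, Smarcc1 and Gtf2i followed for Tead1, Abcg2, Clta and Pwwp2a for Amotl1, and Dpysl3, Nup85 and Akap2 for Yap1, between 0.34 and 0.40. These r values are weak and come from sparse counts.

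Besides LATS, the list of kinases and their partners (15 genes, 12 compared) had 5 genes called lower and 0 higher at P1 relative to E9.5. The median log2 ratio was -0.89. Over all genes compared, 34.8% were called lower and 17.8% higher with a median of -0.61, and these shares are the background of each list below. Sav1, the scaffold that joins MST kinases to LATS, was found in 20 of 42, 7 of 29 and 3 of 41 cells at mean levels of 35.2 CPM, 5.63 CPM and 2.24 CPM, and was called 15.7-fold lower at P1 than at E9.5. The means of Sav1 without the highest cell of each age were 25.8, 1.47 and 1.05 CPM. Wwc2, a KIBRA family scaffold, averaged 85.8 CPM, 16.5 CPM and 13.2 CPM, with P1 called 6.51-fold below E9.5. The cell E12-5b held 60.3% of the E12.5 sum of Wwc2, and without the highest cell of each age its means were 56.6, 6.76 and 10.3 CPM, so no order of E12.5 and P1 is read. Mob1b, a LATS activator, averaged 47.3 CPM, 103 CPM and 23.5 CPM, and P1 was called 4.38-fold below E12.5 (naming set pairs from -2.49 to -0.70). Taok2 went the other way between these ages, with 15.2 CPM, 3.07 CPM and 20.6 CPM and P1 called 6.70-fold above E12.5, on 6 of 41 cells. Without the highest cell of each age these means were 11.6, 0.552 and 11.9 CPM. The most abundant genes of the list, Taok1 (725 CPM, 512 CPM and 424 CPM), Stk38l (216 CPM, 412 CPM and 176 CPM) and Stk38 (102.4 CPM, 44.7 CPM and 65.9 CPM), were not called between E9.5 and P1. The MST kinase genes, named after their values were seen, were called lower at P1 than at E9.5. Stk3 averaged 55.0, 72.3 and 19.4 CPM (2.84-fold, naming set pairs from -2.33 to -0.80). Stk4 averaged 43.7, 22.8 and 18.0 CPM (2.43-fold, pairs from -2.15 to -0.51).

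A mixed list covers proteins that bind or modify YAP, inhibit LATS or belong to complexes that do (17 genes, 16 compared). It gave 7 called lower and 1 higher at P1 relative to E9.5. The median was -1.39 beside the -0.61 of all genes (34.8% lower, 17.8% higher). Amot, the founding angiomotin, was in 22 of 42, 4 of 29 and 0 of 41 cells, at 69.8 CPM, 3.47 CPM and 0 CPM, so that E12.5 was called 20.1-fold below E9.5. In E9.5 cells 1 of set N530 held 56.4% of the sum (1655 CPM) and in E12.5 cells 1 of set N523 held 96.7% (97.3 CPM). Without the highest cell of each age the means were 31.2, 0.118 and 0 CPM, so the size of this fold rests on single cells. Amotl2, which is also among the target genes, followed at 91.5 CPM, 17.1 CPM and 8.10 CPM, with P1 called 11.3-fold below E9.5 (pairs from -4.01 to -0.72), and here too 1 cell at 2573 CPM stood over the next at 472 CPM. Without the highest cells its means were 31.0, 11.7 and 4.58 CPM. Jub, which encodes the LATS inhibitor Ajuba, had 22.7 CPM, 2.38 CPM and 6.02 CPM, or 14.2, 1.502 and 3.43 CPM without the highest cells. The 14-3-3 genes Ywhaz (1715 CPM, 1849 CPM and 673 CPM) and Ywhaq (428 CPM, 438 CPM and 159 CPM), whose proteins bind phosphorylated YAP, were called 2.55-fold and 2.68-fold lower at P1 than at E9.5. Ywhae (1640 CPM, 2403 CPM and 1308 CPM) was not called.

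Dmd, dystrophin, was the 1 gene of that list called higher at P1 and E12.5 relative to E9.5. It is part of the complex that anchors muscle cells to their matrix, in which dystroglycan is the protein known to bind YAP. Dag1, the dystroglycan gene, averaged 59.6 CPM at E9.5 and 81.9 CPM at P1 and was not called (log2 ratio 0.46, naming set pairs 0.42 and 0.54). Dmd had a count in 11 of 42, 18 of 29 and 35 of 41 cells. Its level ran from 0 to 263 CPM, from 0 to 805 CPM and from 0 to 2407 CPM, around medians of 0, 30.1 CPM and 447 CPM. P1 averaged 594 CPM against 11.4 CPM at E9.5, 52.2-fold more (log2 ratio 5.71, naming set pairs from 4.75 to 6.62). At E9.5 1 cell held 55.0% of the sum, and the mean without it was 5.24 CPM. At equal depth its share was 9.52%, 58.6% and 84.2% of cells.

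Polarity and cadherin genes, which relay cell contact to the pathway (12 genes, 11 compared), had 6 called lower and 0 higher at P1 relative to E9.5, with a median of -1.66 beside -0.61 over all genes (34.8% lower, 17.8% higher). Tjp1, the tight junction protein ZO-1, averaged 142 CPM, 37.4 CPM and 32.5 CPM and was called 4.37-fold lower. Llgl1 (37.8 CPM, 127 CPM and 5.09 CPM) and Lin7c (93.1 CPM, 214 CPM and 16.4 CPM) were called higher at E12.5 than at E9.5 and lower at P1 than at either. Llgl1 averaged 28.0, 91.7 and 3.05 CPM, and Lin7c 70.7, 140.2 and 7.72 CPM, once the highest cell of each age was left out. Fat4, an atypical cadherin, was in 1 of 41 P1 cells and averaged 38.2 CPM, 28.8 CPM and 1.30 CPM. Ctnna1, alpha-catenin, had 561 CPM, 365 CPM and 774 CPM and was called higher at P1 than at E12.5 only. Cdh2, N-cadherin, the main cadherin of heart muscle, had 90.4 CPM, 172 CPM and 153 CPM with no call. The related vestigial genes Vgll1 and Vgll3 had no count in any kept cell, and Vgll2 was in 1 E9.5 cell at 103 CPM.

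Genes that YAP and TAZ are known to switch on through TEAD (21 genes, 14 compared) had 8 called lower and 3 higher at P1 relative to E9.5, with a median of -1.54 (34.8% and 17.8% of all genes, median -0.61). From E12.5 to P1 it was 6 lower and 1 higher with a median of -1.45 (22.6% and 18.1% of all genes, median -0.37). From E9.5 to E12.5 it was 1 lower and 0 higher with a median of 0.02 (17.1% and 8.75% of all genes, median -0.15). The 3 called higher, named after their values were seen, were Asap1 (14.3, 25.0 and 33.8 CPM, 2.37-fold), Ccdc80 (27.1, 19.3 and 54.3 CPM, 2.00-fold) and Crim1 (1.59, 8.90 and 7.78 CPM, 4.90-fold), the last in 2 P1 cells, with a mean of 0.318 CPM once the higher was left out. Ccdc80 lay at the limit of 2-fold. Its means without the highest cell of each age were 15.8, 9.36 and 39.6 CPM, and those of Asap1 were 7.96, 12.49 and 23.9 CPM. Ankrd1, a muscle ankyrin repeat protein and widely used YAP readout, was in 39 of 42, 28 of 29 and 28 of 41 cells. Its level ran from 0 to 20389, 0 to 10881 and 0 to 4549 CPM, around medians of 1928, 1855 and 34.9 CPM. The P1 cells overlapped the lower part of the embryonic range and had more cells at 0. The mean was 3112 CPM, 3154 CPM and 764 CPM, with P1 called 4.07-fold below E9.5 and 4.13-fold below E12.5. In naming sets it was 4110 CPM and 2613 CPM at E9.5 (C and N530) and 3608 CPM and 1787 CPM at E12.5 (C and N523), all above the 764 CPM of P1.

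Cyr61, a secreted matrix protein, had a count in 33 of 42, 19 of 29 and 5 of 41 cells, and in 64.3%, 48.3% and 10.5% at equal depth. Its highest cells had 2404 CPM, 1036 CPM and 559 CPM, and its medians were 63.1 CPM, 14.2 CPM and 0. The means were 235 CPM, 157 CPM and 20.0 CPM, with P1 called 11.7-fold below E9.5 and 7.84-fold below E12.5. A single P1 cell held 68.2% of the Cyr61 sum, and without it the P1 mean was 6.52 CPM. Ctgf, its relative, had 74.9 CPM, 128 CPM and 31.8 CPM, and P1 was called 2.36-fold and 4.03-fold lower. Its highest P1 cell, at 647 CPM, held 49.7% of the sum, and the mean without it was 16.4 CPM. Ctgf is named beside the listed examples because it is the usual companion readout of Cyr61; it was added after its values were seen.

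Tgfb2, a growth factor, averaged 174 CPM, 124.6 CPM and 24.3 CPM, with P1 called 7.16-fold below E9.5. Without the highest cell its P1 mean was 13.0 CPM. Axl, a receptor kinase, was in 11 of 42, 6 of 29 and 0 of 41 cells, and Dock5 in 3 of 42, 0 of 29 and 0 of 41. The median E9.5 value of both was 0.

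**Figure D5:**
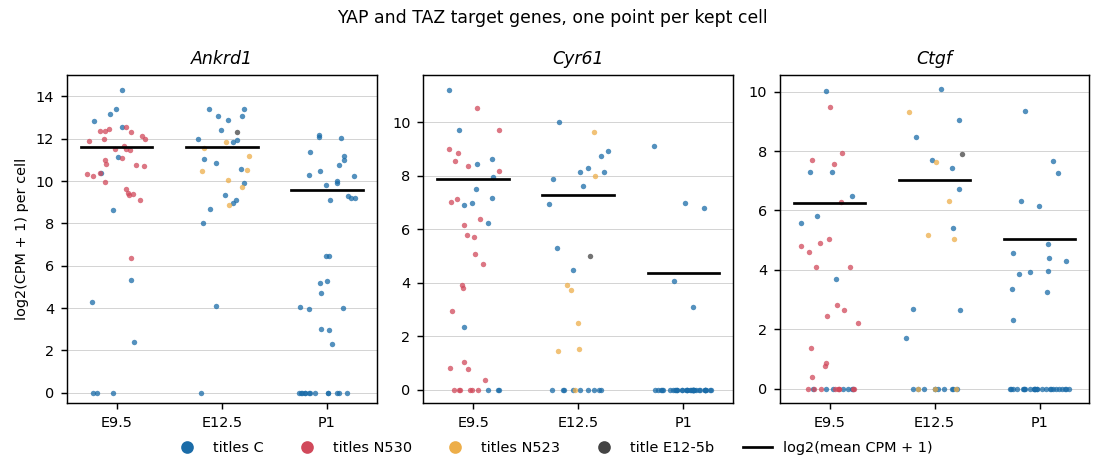
Level of Ankrd1, Cyr61 and Ctgf in every kept cell, as log2(CPM + 1) on the vertical axis, by age, with colours for naming sets and a black bar for the log2 of the mean CPM + 1. Ankrd1 cells at P1 reach from 0 to 4549 CPM, and only 5 of 41 P1 cells have Cyr61.

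The TEAD core motif GGAATG is shown where it stands before the start of genes that carry the results. RefSeq's promoter table (250 bases before to 50 after a start, GRCm38) held entries for 8 of the 10 members, not for Tead1 and Tead4, and for Cyr61 (under its current symbol Ccn1) and Ankrd1. At least 1 promoter of 5 of these 8 members held the motif on either strand: Yap1, Wwtr1, Tead3, Lats2 and Vgll4. Of all 32851 promoters, 14.7% held it and 1.33% held it more than once, and of 27025 genes 16.6% had a promoter with it. The windows are 30 bases, 5′ to 3′ on the strand of the gene, with the motif or its reverse in capitals.
Yap1: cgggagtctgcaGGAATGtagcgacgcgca
Wwtr1: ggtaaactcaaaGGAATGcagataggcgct
Vgll4: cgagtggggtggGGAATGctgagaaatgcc
Ccn1: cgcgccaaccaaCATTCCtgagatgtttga
Ankrd1, far: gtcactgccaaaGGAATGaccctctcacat
Ankrd1, near: gacactaagtctGGAATGaaaattcacctg

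The first motif base lies 141 bases before the start in Yap1 (chr9:8004720-8004749), 136 in Wwtr1 (chr3:57576029-57576058), 82 in Vgll4 (chr6:114969268-114969297, counted from the start of a shorter transcript, so that the window lies in an intron of the longest one) and 103 in Ccn1 (chr3:145650071-145650100), all on the minus strand. In Ankrd1 (minus strand) the 2 windows lie 210 and 123 bases before the start (chr19:36120037-36120066 and chr19:36119950-36119979). Another annotated transcript of Ankrd1 begins further upstream, so both windows lie in its first exon. Tead2, Lats1 and Amotl1 had no match in this window. The Amotl1 entry (chr9:14614951-14615250) lies inside the gene span given above, so the sequence before its outermost start was not searched. A match is a run of letters, and no binding was measured here.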

How the data were processed

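Single reporter-positive heart cells were captured on Fluidigm C1 chips, whose sites were imaged, amplified with SMART-Seq V4 reagents and read as 75-base single reads. The authors mapped reads with OLego, and the deposited counts are raw reads per gene symbol from featureCounts (GRCm38, mm10 per the submitters' processing notes). The deposited TPM were computed by the authors from these counts with Perl scripts. The stated filter of 2000 genes left 112 of 123 deposited cells, fewer than the study describes. No doublet caller was run.

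Here CPM, shares and ratios were computed from the counts in Python 3.11.15 (numpy 2.4.6, scipy 1.17.1), TMM factors with edgeR 4.0.16. Thinning drew 100000 counts per cell without replacement and left out 3 P1 cells. Total counts of kept cells ran from 69522 to 7711355. Shares carry exact (Clopper-Pearson) 95% intervals, and 0 allows up to 3 cells or counts. Reads carry no molecular identifiers, so intervals cover counting error only. The code was tested on simulated data.

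Members and lists were chosen with earlier results of these data known. Of each other list, the 3 genes with the highest mean level and up to 4 called genes with the largest ratio are named, and for likeness the 5 genes with the highest r for the 3 most widely found members. Alternatives changed the level measure, scaling, cells, depth and filters.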

Additional observations from a re-analysis of the deposited data

Results flagged for a closer look

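Between E9.5 and E12.5, the log2 ratios of 4 genes had opposite signs in the 2 kinds of naming set, and the difference was not tested. For Yap1 the log2 ratio of E12.5 to E9.5 was 1.39 within set C but -2.12 for the deeper sets (N523 to N530), a gap of 3.51. It was 0.65 and -2.49 for Tead1, a gap of 3.13. Tead3 had 2.05 and -1.58, a gap of 3.63, on few counts. Vgll4 had 0.05, which is almost no change, and -5.96, a gap of 6.01, with 1 N530 cell holding 57.8% of the E9.5 sum.

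The 11 P1 cells left out for having under 2000 genes also carried members. Their pooled level was 224 CPM for Tead1, found in 8 cells, and 50.4 CPM for Yap1, all 36 counts of which were in 1 cell. It was 6.99 CPM for Lats2 and 9.79 CPM for Amotl1, each in 2 cells. These levels lie above the 4.196 CPM that a count of 0 allows in these cells.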

How the results depend on the processing

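No paired analysis was possible because the labels number no animals or batches across the ages. Of 144 alternative values of called ratios 114 moved by less than the spread over naming sets, 29 moved by more and 1 reversed. Tead2 stayed called lower at P1 relative to E9.5 in 12 of 12 alternatives (log2 -8.05 to -6.32), as did Vgll4 (-4.98 to -2.13) and Amotl1 (-2.77 to -1.20). Yap1 and Lats2 stayed called in 11 of 12, Wwtr1 in 9 of 12, Lats1 at P1 relative to E12.5 in 7 of 12 and Tead2 at E12.5 in 6 of 12. With 3000 or more genes per cell the Lats1 ratio of P1 to E12.5 was -0.11. From E12.5 to P1, members called numbered 1 (Tead2) under pooled CPM, deposited TPM, thinned counts and without titles ending in no, and 5 under set C alone (1 higher, 4 lower) or with the N sets alone (4 higher, 1 lower). From E9.5 to E12.5, 7 were called with the N sets alone (1 higher, 6 lower). Within set C, Yap1 (log2 1.39), Wwtr1 (1.05) and Lats1 (3.12) instead passed 2-fold upward, and Amotl1 (-2.06) passed it downward. With the N sets alone the medians were -1.92 (E12.5 to E9.5), 0.79 (P1 to E12.5) and -1.09 (P1 to E9.5), and with TPM the last was -1.98. The cause was not tested. TMM factors shift all log2 ratios by 0.43, -0.26 and 0.17 in that order. They gave 3, 2 and 7 calls, but from E9.5 to E12.5 Tead2 (-0.70) was no longer called and Lats1 (1.13) was. Leaving out the E12-5b cell was chosen after seeing the data. Tead3 and Tead4 were not compared because their mean over the 3 ages lay under 5 CPM. Tead3 averaged 1.24, 1.47 and 5.33 CPM, the last from 3 cells.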
